A study of Mus musculus with 32 samples.

Results

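The genes described here make, break down or anchor glycogen, the glucose polymer that muscle stores as fuel. They were taken by symbol, and 9 of the 16634 genes in the expression table matched: Gys1, Pygm, Phka1, Phkg1, Gbe1, Ppp1r3a, Ppp1r3c, Ugp2 and Stbd1. All 9 passed the expression filter and none was listed at 0 in any library. In muscle, UDP-glucose made by UGP2 is joined into chains by glycogen synthase and branched by the branching enzyme, and glycogen phosphorylase releases glucose units when the fibre contracts. Phosphorylase kinase switches phosphorylase on, while protein phosphatase 1, held on the glycogen particle by targeting subunits, reverses this and activates the synthase. Muscle uses its own forms of several of these enzymes, and loss of the muscle phosphorylase or of the muscle phosphorylase kinase subunit causes glycogen storage disease.

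RNA was measured in gastrocnemius, a hind limb muscle, of mice 10 weeks old on a mixed genetic background. Mutants carried the Sf1-Cre transgene with both Sirt1 alleles floxed (Sf1-Cre; Sirt1loxP/loxP), and controls had the same floxed alleles and, per the series description, no Cre. The Sf1 promoter was used to aim the deletion at neurons of the hypothalamus and not at muscle, and deletion in other tissues was not tested here. Since controls had no Cre, an effect of the transgene itself cannot be told apart from that of the deletion. Muscle was taken at Zeitgeber time (ZT, hours after lights on) 0, 6, 12 and 18, with 4 libraries per genotype and time and 32 in all. Levels are FPKM, which scale fragment numbers to transcript length and to the size of the library, so that levels of different genes can be compared. Differences are on the log2(FPKM + 1) scale from limma, adjusted over 11972 genes and called at an adjusted p under 0.05.

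The check for muscle held: Ckm, the muscle creatine kinase, lay between 15672 and 22140 FPKM in all libraries. The 3 liver markers (Alb, Apoa1 and Ttr), which should be absent, summed to a median of 0.758 FPKM. Their sum reached 69.9 FPKM in a control ZT18 library, and the reason was not tested. Acta1, the skeletal actin, was listed at 0 in 12 libraries, and such zeros in abundant genes were treated as missing. Relative depth, read from steps in low values, ranged from 0.803 to 1.35, and absolute depth is unknown. The lowest median correlations with the other libraries were 0.954 for mutant ZT12 library 1, 0.956 for mutant ZT0 library 2 and 0.966 for control ZT12 library 3. These libraries also held many of the extremes among the glycogen genes. Mutant ZT12 library 1 had the lowest value of all 32 for 4 genes (Pygm, Phkg1, Ppp1r3c and Ugp2), control ZT12 library 3 had the lowest for 3 (Gys1, Gbe1 and Ppp1r3a) and the highest for Stbd1, and mutant ZT0 library 2 had the highest for Gys1 and Gbe1. The sequencing pool of each sample is not given in the sources used here. Labels list 1 set of index sequences at ZT0 and ZT12 and another at ZT6 and ZT18, so a pool for each time is possible and its effect could then not be told apart from time.

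The phosphorylase was by far the most abundant of the 9. Pygm, the muscle form of glycogen phosphorylase, was at 3216 ± 267 FPKM (SD, n = 32) and ranged from 2316 to 3762 FPKM, clear of every other gene described here. Its coefficient of variation over all libraries was 8.29%, the lowest of the 9. Ugp2, which makes UDP-glucose, followed at 424 ± 58.1 FPKM. The subunits of phosphorylase kinase lay close together, with the catalytic subunit gene Phkg1 at 292 ± 32.3 FPKM and the regulatory subunit gene Phka1 at 233 ± 28.0 FPKM. Their ranges overlapped, from 236 to 372 FPKM for Phkg1 and from 204 to 304 FPKM for Phka1.

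Glycogen synthase and the branching enzyme were far lower than the phosphorylase. Gys1, the muscle glycogen synthase, was at 137 ± 21.8 FPKM, and Gbe1, the branching enzyme, at 35.5 ± 5.38 FPKM (SD, n = 32). The targeting subunits of protein phosphatase 1 differed in how steady they were. Ppp1r3a, the striated muscle subunit, was at 109 ± 16.5 FPKM with a coefficient of variation of 15.2%. Ppp1r3c, also known as protein targeting to glycogen, was at 265 ± 116 FPKM with a coefficient of variation of 43.6%, the highest of the 9. Stbd1, a glycogen-binding protein that anchors glycogen to membranes, was at 36.5 ± 11.9 FPKM and second in variability (32.5%). By mean level the order was Pygm, Ugp2, Phkg1, Ppp1r3c, Phka1, Gys1, Ppp1r3a, Stbd1 and Gbe1. All neighbours in this order had overlapping ranges except Pygm and Ugp2 at the top and Ppp1r3a (78.2 to 137 FPKM) and Stbd1 (20.4 to 65.9 FPKM) lower down.

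**Figure D1:**
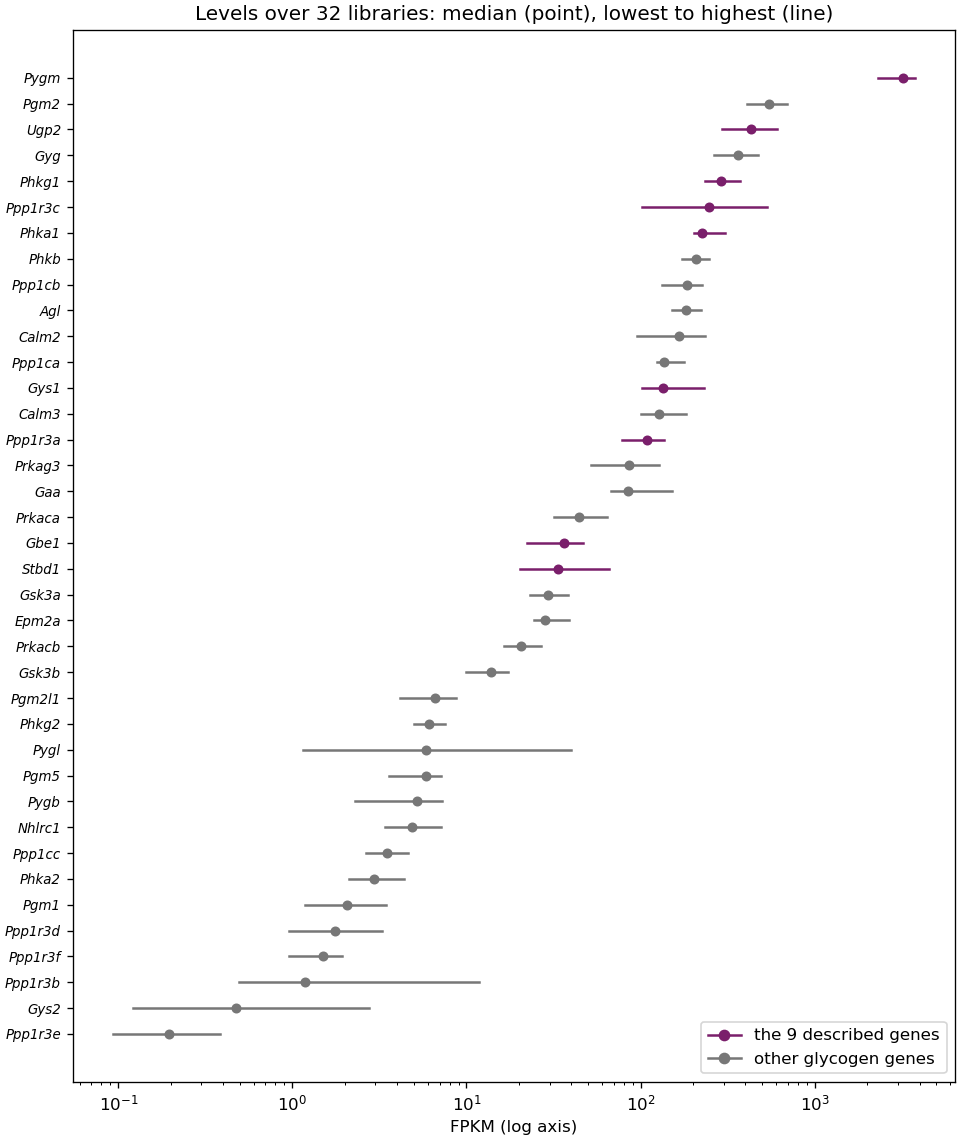
Level of each glycogen gene over all 32 libraries, in FPKM on a log axis. Points are medians and lines run from the lowest to the highest library. The 9 genes described are in purple and other genes of the pathway in grey. Pygm stands above all others, between 2316 and 3762 FPKM.

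The forms of these enzymes known from other tissues were low in the same libraries. Gys2, the liver glycogen synthase, had a median of 0.474 FPKM. The liver phosphorylase gene Pygl had a median of 5.84 FPKM with a range from 1.15 to 39.6 FPKM, and the brain form Pygb a median of 5.23 FPKM. Among kinase subunits, Phka2 was at a median of 2.93 FPKM and Phkg2 at 6.07 FPKM, while Phkb, the subunit shared between tissues, was at 208 FPKM. Thus the subunit with no separate muscle gene was at a level like that of Phka1 and Phkg1. Of 32 further glycogen genes listed, 31 were in the table and 29 passed the filter.

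The table gives 1 region per gene in mm10. By GENCODE bounds, Gbe1 spans chr16:70313949-70569716 on the plus strand, Ppp1r3a chr6:14713977-14755274 on the minus strand and Ppp1r3c chr19:36731731-36736653 on the minus strand. Gys1 lies at chr7:45434844-45456619 (plus), Pygm at chr19:6384399-6398459 (plus), Phka1 at chrX:102513975-102644246 (minus) and Stbd1 at chr5:92603041-92606579 (plus). For Phkg1 and Ugp2 the deposited region was also that of a neighbour, Sumf2 for chr5:129846990-129879083 and Vps54 for chr11:21239032-21371267. The levels of Phkg1 and Ugp2 are therefore uncertain, as how overlapping transcripts were assigned is not given in the sources used here.

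Upstream of the annotated starts, Gbe1, Ppp1r3a and Ppp1r3c differ in their motifs. Gbe1 and Ppp1r3a were called over times, and Ppp1r3c, the most variable of the genes described, was not. Shown are the 250 bases before the start (RefSeq, GRCm38.p6, 5′ to 3′ on the gene's strand), with capitals for motif matches: chr16:70313699-70313948 for Gbe1, chr6:14755275-14755524 for Ppp1r3a and chr19:36736605-36736854 for Ppp1r3c.

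Gbe1: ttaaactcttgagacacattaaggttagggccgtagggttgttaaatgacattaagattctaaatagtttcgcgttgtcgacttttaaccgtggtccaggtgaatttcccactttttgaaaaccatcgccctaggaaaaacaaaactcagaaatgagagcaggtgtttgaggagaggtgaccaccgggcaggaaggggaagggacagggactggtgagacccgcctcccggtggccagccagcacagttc

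Ppp1r3a: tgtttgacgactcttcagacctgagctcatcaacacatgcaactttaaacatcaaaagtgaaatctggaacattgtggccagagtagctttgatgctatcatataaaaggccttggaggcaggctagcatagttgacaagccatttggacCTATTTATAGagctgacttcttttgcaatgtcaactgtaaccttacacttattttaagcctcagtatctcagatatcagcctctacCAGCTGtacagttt

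Ppp1r3c: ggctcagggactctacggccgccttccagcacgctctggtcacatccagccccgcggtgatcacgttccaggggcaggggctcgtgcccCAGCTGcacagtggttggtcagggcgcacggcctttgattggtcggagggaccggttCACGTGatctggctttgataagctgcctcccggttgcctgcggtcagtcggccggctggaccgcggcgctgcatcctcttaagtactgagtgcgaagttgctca

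Motifs were searched on both strands in windows of 300 bases, from 250 before the start to 50 after it, and every gene had at least 1 window (Ugp2 has more than 1 start). The muscle E-box CAGCTG, of the kind bound by myogenic factors, was in a window of 6 of the 9 genes (Gys1, Pygm, Phka1, Ppp1r3a, Ppp1r3c and Ugp2) and in 16.3% of 32851 windows of all genes. The E-box CACGTG, of the kind bound by CLOCK and BMAL1, was in the window of Ppp1r3c, with its first base at -104 from the start, and in no other of the 9. It was in 7.15% of all windows. A loose form of the MEF2 motif, CTA and TAG separated by any 4 bases, matched in Phka1 (CTAAAACTAG) and in Ppp1r3a (CTATTTATAG) at -100. The same loose form was in 3.69% of all windows. The D-box TTATGTAA, the cAMP response element TGACGTCA and the nuclear receptor half-site AGGTCA matched in none of the 9 and in 0.938%, 1.79% and 16.3% of all windows. Gbe1 held none of the motifs searched. A match describes these letters and does not show binding.

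With both genotypes averaged, Gbe1 and Ppp1r3a changed over the day, and both were low at ZT12. Of the 9 genes, 2 were called by limma (F test over 4 times), against 11.6% of all genes, and 6 had an unadjusted p under 0.05, against 26% of all genes. The median range between times was 0.27 on the log2 scale for the 9 and 0.18 for all genes tested. On the values as deposited, 7 of the 9 had their lowest mean at ZT12, as had 24.6% of all genes, and Phkg1 and Stbd1 had theirs at ZT0. With libraries scaled to a common median, the number lowest at ZT12 was 6, since Pygm was then lowest at ZT0, against 19.4% of all genes. By genotype, only Ppp1r3a and Ppp1r3c had their lowest mean FPKM at ZT12 in both. In controls Pygm and Phka1 were lowest at ZT0 and Ugp2 at ZT6, and in mutants Gys1, Gbe1 and Phka1 were lowest at ZT6. Mutant ZT12 library 1 and control ZT12 library 3, both of low correlation with the others, held the lowest single value of 4 and 3 of the 9 genes.

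In Gbe1, which encodes the branching enzyme, control libraries read 39.6, 36.8, 34.7 and 39.8 FPKM at ZT0 and 35.9, 38.0, 32.3 and 32.5 at ZT6. They read 22.7, 31.8, 32.1 and 22.3 at ZT12 and 32.5, 39.1, 34.3 and 43.6 at ZT18. The ZT12 libraries lay below all ZT0 and ZT6 libraries, and libraries 0 and 3 were much lower than libraries 1 and 2. Mutant libraries read 39.4, 40.0, 46.9 and 35.6 FPKM at ZT0 and 34.3, 37.0, 28.1 and 29.7 at ZT6. They read 36.3, 36.5, 30.2 and 34.2 at ZT12 and 40.1, 39.1, 40.2 and 41.4 at ZT18. In mutants the ZT18 libraries lay above all ZT6 and ZT12 libraries, and ZT6 and ZT12 overlapped. The mutant mean was lowest at ZT6, 32.3 ± 4.11 FPKM, against 34.3 ± 2.92 at ZT12 (SD, n = 4), unlike in controls. Over both genotypes Gbe1 was at 39.1 ± 3.77 FPKM at ZT0 and fell through 33.5 ± 3.48 at ZT6 to 30.8 ± 5.55 at ZT12, before 38.8 ± 3.64 at ZT18 (SD, n = 8 each). The highest fitted mean, at ZT0, was 1.28-fold the lowest, at ZT12, a range of 0.35 on the log2 scale (limma adjusted p = 0.00552). By mean, the 8 groups ran from 27.2 ± 5.46 FPKM in control ZT12 to 40.5 ± 4.70 FPKM in mutant ZT0 (SD, n = 4), and all neighbours in this order overlapped in their libraries.

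Ppp1r3a, the striated muscle targeting subunit, had its highest mean at ZT18 in both genotypes. Control libraries read 114, 115, 118 and 130.1 FPKM at ZT0 and 99.0, 99.7, 100.4 and 98.1 at ZT6. They read 99.0, 107, 111 and 78.2 at ZT12 and 131, 112, 125 and 129 at ZT18. All control libraries of ZT0 and ZT18 lay above all those of ZT6 and ZT12. Mutant libraries read 82.6, 117, 97.9 and 104 FPKM at ZT0 and 131, 101, 85.5 and 86.9 at ZT6. They read 89.4, 85.2, 96.9 and 118 at ZT12 and 128, 137, 126 and 119.7 at ZT18. In mutants ZT18 lay above all ZT0 and ZT12 libraries, and 1 ZT6 library reached the ZT18 level. Over both genotypes the mean was 126 ± 7.48 FPKM at ZT18 and 98.1 ± 13.5 at ZT12 (SD, n = 8 each), a 1.29-fold range (0.37 on the log2 scale, limma adjusted p = 0.0120). With quantile normalisation the call for Ppp1r3a was lost (adjusted p = 0.0560).

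Ppp1r3c spread more widely than any other of the 9 and did not pass the test over times. Control libraries read 227, 349, 223 and 304 FPKM at ZT0 and 456, 449, 272 and 269 at ZT6. They read 163, 438, 237 and 153 at ZT12 and 469.7, 453, 146 and 256 at ZT18. Control groups overlapped at all times, and at ZT18 the lowest and highest libraries were 3.21-fold apart. Mutant libraries read 290.3, 172, 188 and 534 FPKM at ZT0 and 227, 277, 289 and 321 at ZT6. They read 139.9, 102, 120.2 and 154 at ZT12 and 163, 262, 194 and 197 at ZT18. In mutants the ZT12 libraries lay below all libraries of the other times. The fitted means differed 1.83-fold between ZT6 and ZT12 (0.87 on the log2 scale, limma adjusted p = 0.0689). Single libraries decide this call: it passed when control ZT12 library 1 (adjusted p = 0.0168), control ZT18 library 2 (0.0334) or either of mutant ZT0 libraries 1 (0.0453) and 3 (0.0467) was left out. It also passed with a slow fibre score, the mean log2 level of slow fibre markers, as a covariate (0.0445).

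The other genes varied less or less steadily over the day. Stbd1 had its highest mean at ZT6, 44.8 ± 8.96 FPKM against 30.2 ± 4.21 at ZT0 (SD, n = 8 each), a 1.46-fold difference with a limma adjusted p of 0.145 over times. At ZT6 every Stbd1 library but 2, both mutant, lay above all libraries of ZT0. For Gys1, the synthase, the range between times was 0.27 on the log2 scale (adjusted p = 0.0914), with 151 ± 33.6 FPKM at ZT0 and 123 ± 14.5 at ZT12. The highest ZT0 library was mutant library 2, at 230.2 FPKM. Without that library the range was 0.22 and the adjusted p 0.0412, and without mutant ZT0 library 1 or 3 the adjusted p was 0.0371 or 0.0375. The range was 0.24 for Ugp2 (adjusted p = 0.114), 0.20 for Phka1 (0.265), 0.17 for Phkg1 (0.404) and 0.15 for Pygm (0.226). Ugp2 passed without mutant ZT12 library 2 (0.0477), and Stbd1 passed without mutant ZT18 library 0 (0.0439) or with array weights (0.0290).

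**Figure D2:**
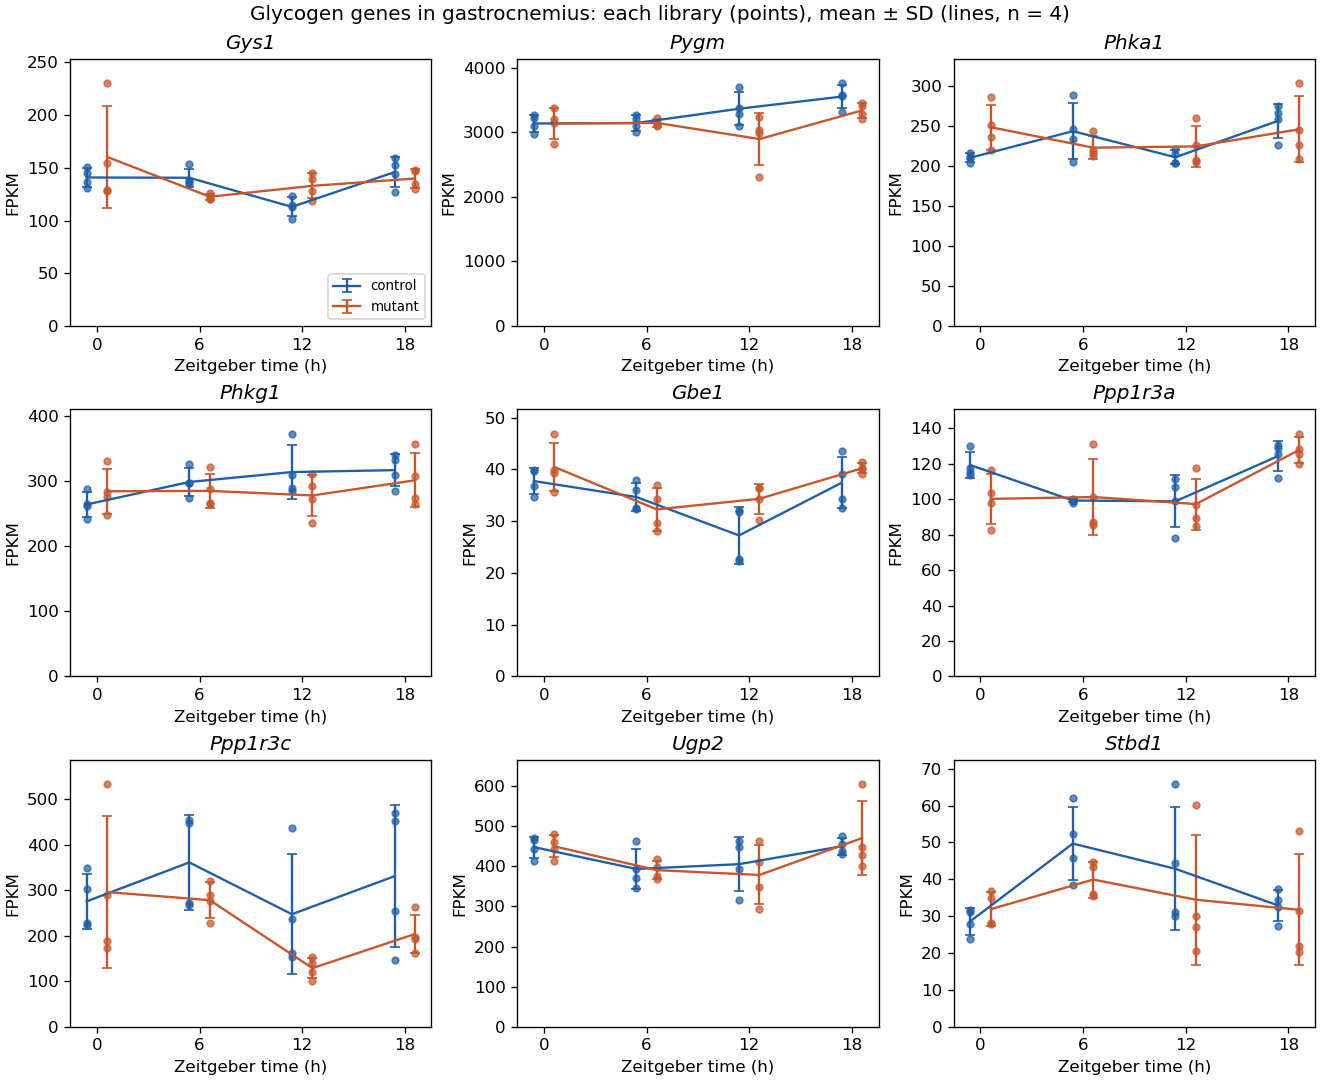
Level of the 9 genes by Zeitgeber time in controls (blue) and mutants (orange), in FPKM. Points are libraries, lines join means and bars are the SD (n = 4), with the genotypes set slightly apart along the time axis. Gbe1 is lowest in the controls of ZT12, Ppp1r3a is highest at ZT18 in both genotypes, and Ppp1r3c has wide bars.

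Markers of other cells and fibres moved with time too. All 10 slow fibre markers had higher means at ZT6, ZT12 and ZT18 than at ZT0. Their summed level had a median of 1075 FPKM at ZT0 (650 to 1766), 1389.7 at ZT6 (1198 to 1994), 1547 at ZT12 (631 to 2516) and 1637 at ZT18 (1085 to 1948), and none was at 0 in any library. The 4 endothelial markers summed to a median of 115.0 FPKM at ZT0 (97.2 to 130.0) and 82.1 at ZT18 (75.0 to 90.5), with no overlap. With the slow fibre score as a covariate, Gbe1 (adjusted p = 0.0106) and Ppp1r3a (adjusted p = 0.0154) kept their calls over times in limma. The part of endothelial cells was not tested. In whole muscle, fewer cells of a type and less RNA per cell cannot be told apart.

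A 24 h rhythm was then asked of each genotype alone, from the cosine and sine contrasts of the 4 group means. In controls 1 of the 9 genes was called by limma, against 5.56% of all genes, and 4 had an unadjusted p under 0.05 (Gbe1, Ppp1r3a, Stbd1 and Gys1), against 19.4% of all genes. The gene called was Gbe1, with an amplitude of 0.24 (log2 from mean to peak), a fitted peak at ZT23.2 and an adjusted p of 0.0249. This call rests on few libraries. It was lost without control ZT0 library 0, control ZT0 library 3, control ZT12 library 0 or control ZT12 library 3 (adjusted p = 0.0672 to 0.0983), and also with the slow fibre score as a covariate (adjusted p = 0.0630), where the amplitude was 0.25. Ppp1r3a had an amplitude of 0.21 (peak at ZT20.8, adjusted p = 0.0818), Gys1 of 0.16 (peak at ZT23.4, 0.231) and Stbd1 of 0.38 (peak at ZT8.77, 0.193). Fitted alone, without the mutants, the controls gave calls for Gbe1, Ppp1r3a (adjusted p = 0.0234) and Gys1 (0.0462). With array weights, which let noisy libraries count less, these 3 and Stbd1 were called. Gys1 also passed without mutant ZT0 library 2 (0.0343) and Ppp1r3a without mutant ZT6 library 0 (0.0410), since all groups share 1 estimate of the spread.

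In mutants 0 of the 9 genes were called by limma, against 3.93% of all genes, and 4 had an unadjusted p under 0.05 (Gbe1, Ppp1r3a, Ppp1r3c and Ugp2), against 14.3% of all genes. Gbe1 had an amplitude of 0.20 with a fitted peak at ZT20.4 (adjusted p = 0.120). Ppp1r3c had the largest amplitude of the 9 in mutants, 0.58 with a peak at ZT1.56 (adjusted p = 0.135), against 0.17 in controls (adjusted p = 0.834). The value in controls moved to 0.31 without control ZT12 library 1 and to 0.29 with the slow fibre covariate. Ppp1r3a was at 0.18 (peak at ZT18.5, 0.242) and was called without mutant ZT6 library 0 (0.0419) or with array weights (0.0283). The median amplitude of the 9 was 0.16 in controls and 0.18 in mutants, against 0.10 and 0.09 over all genes tested.

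The rhythms were not shown to differ between genotypes. By limma's test of the difference in cosine and sine, 0 of the 9 genes passed and 0 had an unadjusted p under 0.05, against 0% and 5.34% of all genes. Gbe1 had the smallest limma adjusted p, 0.900. For Ppp1r3c, whose amplitudes lay furthest apart, it was 0.903. So a call for Gbe1 in controls and none in mutants is not shown to be a difference between them.

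**Figure D3:**
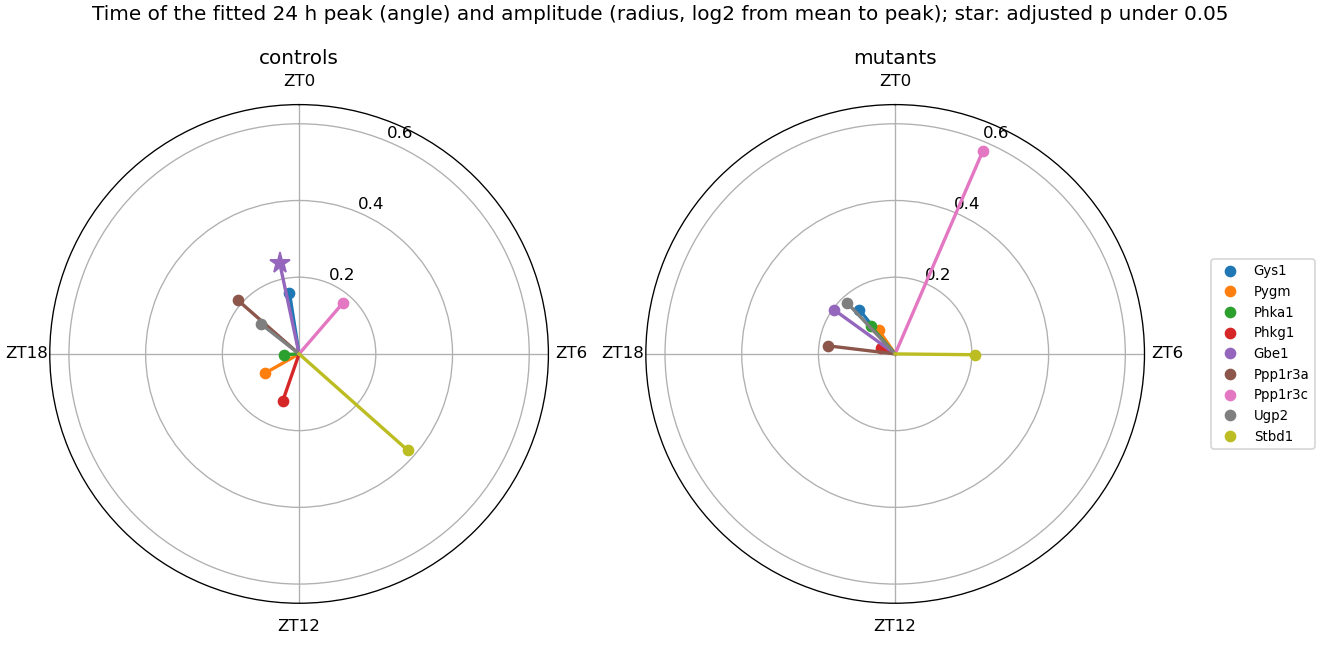
Fitted 24 h rhythm of each gene in controls and in mutants. The angle is the time of the fitted peak (ZT in hours) and the radius the amplitude (log2 from mean to peak), and a star marks an adjusted p under 0.05. Gbe1 in controls carries the only star, Stbd1 points furthest out in controls (0.38) and Ppp1r3c in mutants (0.58).

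Between genotypes over all times, 0 of the 9 genes were called by limma, against 0.0251% of all genes. At an unadjusted p under 0.05, 1 of the 9 passed (Ppp1r3c), against 6.48% of all genes. Ppp1r3c was at 304 ± 116 FPKM in the 16 controls against 227 ± 105 FPKM in the 16 mutants (SD), a difference of -0.44 on the log2 scale (SE 0.172, 95% interval -0.79 to -0.09, adjusted p = 0.754). The range was 146 to 469.7 FPKM in controls and 102 to 534 FPKM in mutants, so that the genotypes overlapped over most of their range. Gbe1 was at 34.2 ± 5.72 and 36.8 ± 4.85 FPKM (difference 0.11, 95% interval -0.01 to 0.23, and 0.06 with array weights), and Pygm at 3301 ± 241 and 3131 ± 271 FPKM (-0.08, -0.17 to 0.01, and -0.02 with quantile normalisation).

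For the remaining genes the 95% intervals are for the log2 difference over all times and do not bound a difference at a single time. They ran from -0.09 to 0.15 for Gys1, -0.08 to 0.14 for Phka1, -0.17 to 0.06 for Phkg1, -0.18 to 0.07 for Ppp1r3a, -0.15 to 0.12 for Ugp2 and -0.43 to 0.11 for Stbd1. The bounds were widest for Ppp1r3c and Stbd1, the genes with the largest spread between libraries. The Stbd1 estimate of -0.16 moved to -0.10 without control ZT12 library 3 and to -0.29 with the slow fibre covariate. The differences of Gys1 (0.03), Phka1 (0.03) and Ugp2 (-0.01) were near 0 and changed sign under some alternatives. The median difference of the 9 was -0.06 and that of all genes tested was 0.00226.

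At single times, 0 of the 9 genes were called by limma at any time. At ZT12, 3 had an unadjusted p under 0.05 (Gbe1, Pygm and Ppp1r3c), against 17.4% of all genes, with 0.0251% of all genes called. There Gbe1 was at 27.2 ± 5.46 FPKM in controls against 34.3 ± 2.92 FPKM in mutants (SD, n = 4), a log2 difference of 0.34 (SE 0.114, 95% interval 0.11 to 0.57, adjusted p = 0.161). The lowest mutant library (30.2 FPKM) lay below 2 of the 4 controls. Over the alternatives the Gbe1 difference ran from 0.24 (array weights) to 0.35. On leaving out single libraries it ran from 0.25 (without control ZT12 library 3) to 0.42. Pygm was at 3367 ± 256 and 2897 ± 403 FPKM (-0.22, SE 0.0849, adjusted p = 0.195), and its lowest mutant value, 2316 FPKM, was that of mutant ZT12 library 1. Without that library the Pygm difference was -0.12. Ppp1r3c was at 248 ± 132 and 129 ± 22.8 FPKM (-0.82, SE 0.344, adjusted p = 0.228), and control library 1, at 438 FPKM, was the highest by far. Without it the difference was -0.50.

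At ZT0, 2 of the 9 had an unadjusted p under 0.05, against 8.39% of all genes, with 0.0167% called. Phka1, the muscle regulatory subunit of phosphorylase kinase, was at 210.5 ± 5.35 FPKM in controls against 249 ± 28.2 FPKM in mutants (0.23, SE 0.106, adjusted p = 0.578). All 4 mutant libraries, from 221 to 287 FPKM, lay above all 4 controls, from 204 to 217 FPKM. The highest of them was mutant ZT0 library 2, of low correlation with the other libraries. On leaving out single libraries the Phka1 difference ran from 0.16 (without that library) to 0.29. Ppp1r3a was at 119 ± 7.33 and 100.2 ± 14.1 FPKM (-0.26, SE 0.122, adjusted p = 0.589), with 1 mutant library among the controls. Without mutant ZT0 library 0 the Ppp1r3a difference was -0.17. At ZT6 0 of the 9 had an unadjusted p under 0.05, against 10.4% of all genes with 0.0167% called, and the smallest adjusted p was 0.528 (Gys1). At ZT18 the count was 0 again, against 2.88% of all genes with 0.0167% called. The test of whether the genotype difference depends on time gave 0 of the 9, with 0 at an unadjusted p under 0.05 and a smallest adjusted p of 0.400 (Gys1), against 0% and 14% of all genes. These comparisons share libraries with the one over all times and are not independent of it.

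**Figure D4:**
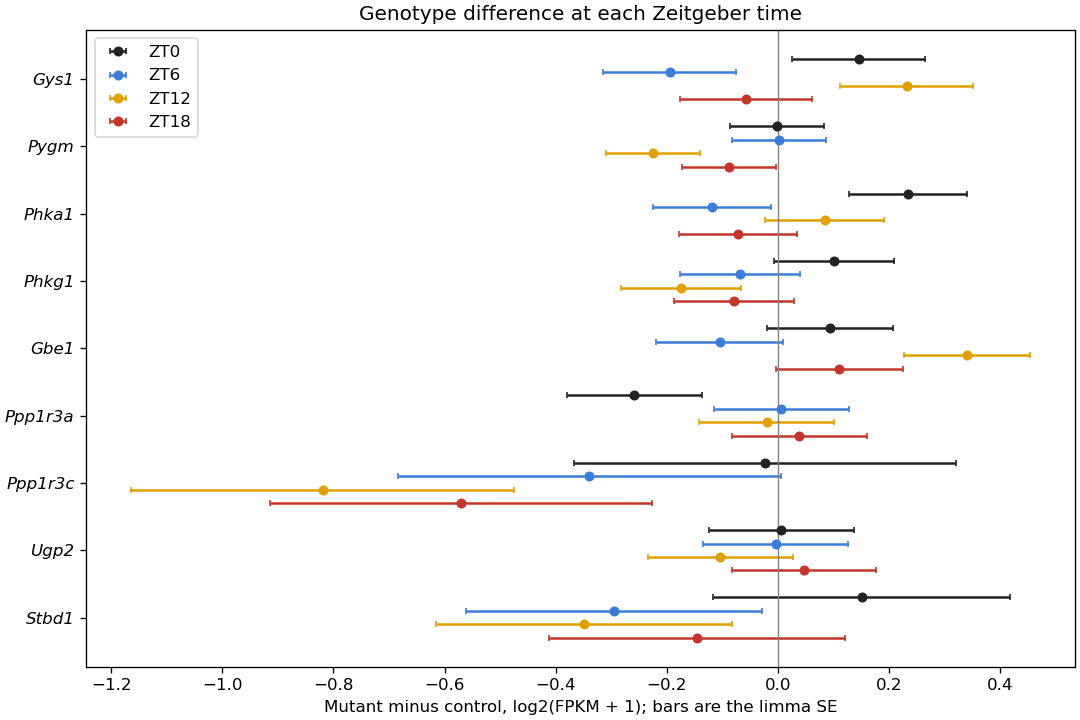
Mutant minus control difference of each gene at each Zeitgeber time, on the log2(FPKM + 1) scale. Points are limma estimates and bars their SE. The estimate furthest from 0 is that of Ppp1r3c at ZT12 (-0.82), and none of the differences passed at an adjusted p under 0.05.

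Summed markers of fibres and other cells are given by genotype as a description, without a test. The 10 slow fibre markers all had lower means in mutants over all times, and 9 of 10 at ZT12. Their sum had a median of 1606 FPKM in controls (902 to 2516) and 1252 in mutants (631 to 2189). The 8 lymphocyte markers summed to a median of 3.16 FPKM in controls (1.57 to 74.5) and 29.5 in mutants (2.09 to 60.3), and 6 of the 8 were at 0 in at least 1 control library. The 7 adipocyte markers summed to 857 FPKM in controls (493 to 1538) and 1047 in mutants (436 to 2620). Fast fibre markers, of which 1 was at 0 in some libraries, summed to a median of 96935 FPKM in controls and 96387 in mutants. Macrophage markers summed to 57.4 and 65.7 FPKM and endothelial markers to 83.5 and 91.6. The ranges of the genotypes overlapped for each list. With the slow fibre score as a covariate 0 of the 9 genes were called between genotypes, as without it. The part of lymphocytes and adipocytes in these differences was not tested.

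Of the other glycogen genes, 28 were compared in the same way, and 1 of them, Pgm5, was called over times, against 11.6% of all genes. Pgm5, a relative of phosphoglucomutase, was at 6.27 ± 0.623 FPKM at ZT0 and 5.07 ± 0.635 at ZT12 (SD, n = 8 each), its highest and lowest means (range 0.26 on the log2 scale, limma adjusted p = 0.0434). Like Gbe1 with the genotypes averaged, it thus had its lowest mean at ZT12. Prkag3, the muscle gamma subunit of AMP-activated kinase, came next by p and did not pass, with 71.7 ± 14.0 FPKM at ZT0 and 97.3 ± 16.4 at ZT6 (range 0.44, adjusted p = 0.0655). For the 24 h rhythm in controls 0 of the 28 were called by limma, with 1 at an unadjusted p under 0.05, against 5.56% and 19.4% of all genes. In mutants 0 of the 28 were called, with 2 at an unadjusted p under 0.05, against 3.93% and 14.3% of all genes. Between genotypes over all times 0 were called, with 1 at an unadjusted p under 0.05, against 0.0251% and 6.48% of all genes.

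After the group means were removed, the genes did not vary as 1 block from library to library. Phkg1, Phka1 and Pygm went with Ugp2 (Pearson r = 0.63, 0.60 and 0.58 over 32 libraries). Mutant ZT12 library 1 was the lowest of all for Phkg1, Pygm and Ugp2, and mutant ZT18 library 0 the highest for Phka1 and Ugp2. The weight of these libraries in the r values was not tested, and the levels of Phkg1 and Ugp2 are uncertain. Gbe1 went with Gys1 (0.53) and against Phkg1 and Stbd1 (-0.45 each). Mutant ZT0 library 2 was the highest of all for both Gys1 and Gbe1. Control ZT12 library 3 was the lowest for both and the highest for Stbd1. The weight of these libraries in the r values of Gbe1 was not tested either. Ppp1r3c stood apart, with no r beyond 0.25 in size. The libraries share depth and fibre makeup across genes, and Phka1, Ugp2 and Stbd1 each ran against the slow fibre score within groups (r = -0.40, -0.39 and -0.39), so these values are a description. Over the levels of all 32 libraries, the genes most like Gbe1 were Tbx15 (r = 0.80), Slc16a1 (0.79) and P2ry1 (0.76), out of 11947 compared. Those most like Ppp1r3a were Larp4 (0.77), Kitl (0.77) and Trpm7 (0.73).

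**Figure D5:**
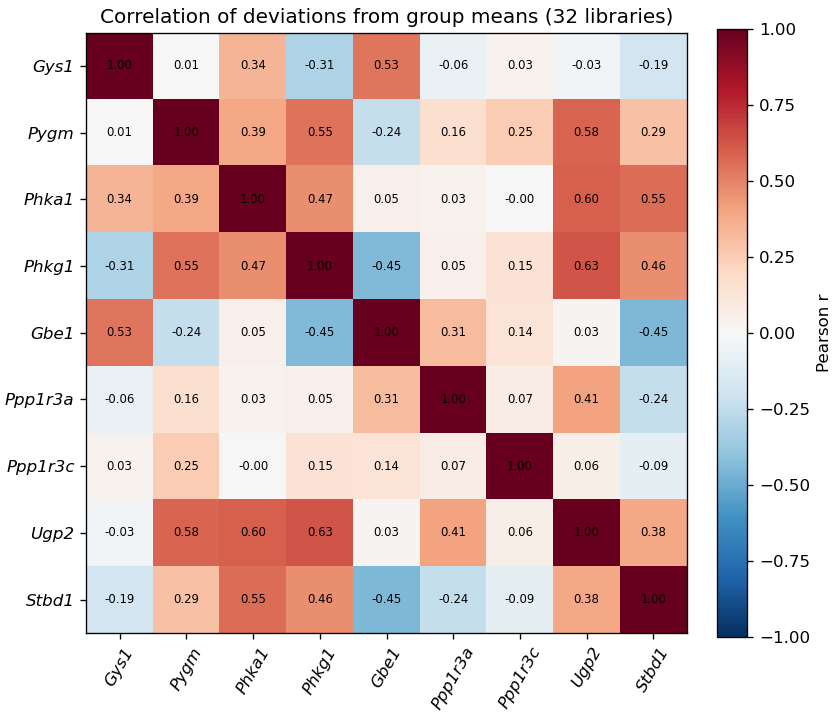
Pearson correlation between the 9 genes over 32 libraries, computed on log2(FPKM + 1) after the mean of each group was removed. Red is positive and blue negative. Phkg1 and Ugp2 have the highest value (0.63), and Gbe1 is at -0.45 with both Phkg1 and Stbd1.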

How the data were processed

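The expression table holds FPKM values, 1 per gene and library, as deposited by the authors, with genome build mm10 per the submitters' processing notes. Per the labels' protocols, RNA was made into stranded mRNA libraries. No aligner, quantifier or gene annotation is given in the labels, so these are not given in the sources used here. Columns were matched to groups by the genotype and time in their names. The number in a column name is tied to no animal and pairs nothing. The labels name separate animals in each group.

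Of 16634 genes, 11975 had at least 1 FPKM in at least 4 libraries, and 3 of these had a group without values, which left 11972. In 19 abundant genes 223 exact zeros were set to missing. Per gene, 1 mean per group was fitted to log2(FPKM + 1) with limma 3.58.1 in R 4.3.3 (trended prior, residual degrees of freedom 24, prior 3.49), 2-sided, with Benjamini-Hochberg adjustment over all genes. The pseudocount of 1 understates changes of low genes. FPKM carries no counts. Low values of 878 genes fell in steps (66.8% within 0.1 of a whole multiple, against 20% with no steps), which gave relative depth only. The procedure was tested on simulated data. The 9 genes and all lists were chosen with earlier results of these data known. Every one of the 9 is named. Of the other glycogen genes, those called, the isoforms and the 3 with the smallest p over times are named, and for each of the 9 called over time the 3 most correlated genes. A result for 1 of the other glycogen genes is not reported here.

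Alternatives were a pseudocount of 0.1, no filter, a minimum mean of 5 FPKM, quantile normalisation, a common median, zeros kept, array weights, a slow fibre covariate, the compared libraries alone and each library left out in turn. Leaving out both libraries of lowest correlation was chosen after seeing the data.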

Additional observations from a re-analysis of the deposited data

How the results depend on the processing

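Of the 10 comparisons, counts of called genes among the 9 stayed within 1.5-fold in 90 of 96 alternative fits and in 311 of 320 fits that left out 1 library. The count for the 24 h rhythm in controls was 1, and it was 4 with array weights, 0 with the slow fibre covariate, 3 with controls alone, 2 without both libraries of lowest correlation and 0 to 2 on leaving out single libraries. In mutants the count was 0, and it was 1 with array weights (Ppp1r3a) and 0 to 1 on leaving out single libraries. Over times the count was 2, and it was 1 with quantile normalisation, 3 with array weights (Stbd1 added), with the slow fibre covariate (Ppp1r3c added) and without both libraries of lowest correlation (Gys1 added), and 2 to 4 on leaving out single libraries, with 4 without mutant ZT0 library 1 or library 3 (Gys1 and Ppp1r3c added). The causes were not tested. Counts between genotypes were 0 in every fit. Such fits were taken as unchanged and make up much of the agreement above. For the 24 h rhythm in controls, the count moved in 4 of 10 alternative fits and in 6 of 32 fits that left out 1 library. The Gbe1 adjusted p over times ran from 0.00232 to 0.0139 on leaving out single libraries, and that of Ppp1r3a from 0.00190 to 0.0308.

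Genotype differences near 0 changed sign. That of Gys1 was -0.014 with array weights, -0.0267 without both libraries of lowest correlation and -0.0155 (without mutant ZT0 library 2) to 0.0542 on leaving out single libraries. That of Phka1 was -0.00323 with array weights and -0.0159 with the slow fibre covariate. That of Ugp2 was 0.0247 without both libraries and -0.0456 to 0.0149 on leaving out single libraries. No paired analysis was possible because the columns carry no number that ties libraries of different groups to 1 animal or day. With 4 libraries per group, intervals at single times are wide for Ppp1r3c and Stbd1, and absolute depth is unknown.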
